A study of Mus musculus with 3 samples.

Results

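The genes of the splicing machinery described here are the spliceosome proteins of the Snrp, Sf3a, Sf3b and Prpf names, the branch-site and activation factors U2af1, U2af2 and Cdc5l, the SR proteins (Srsf), the hnRNP proteins (Hnrnp) and the poly(C)-binding proteins (Pcbp). They were chosen by gene name alone. Snrpn, which also fits the Snrp names, was left out by the rule and is counted among the other splicing genes. It was at 2.91, 3.51 and 2.36 FPKM in control, low dose and high dose. Of 23376 gene names in the tables, 72 matched, and 60 of these averaged 1 FPKM or more across the 3 libraries and are called expressed below. The remaining 12 were Prpf19, Prpf40b, Sf3a2, Srsf6, Srsf12, Hnrnpl, Hnrnpll, Hnrnpul1, Hnrnph2, Pcbp4 and the pseudogenes Snrp1c-ps1 and Hnrnpa1l2-ps. Pcbp2 and Hnrnpm, which also fit the names, had no row under those names among the rows used here. Closest to the level that counts as expressed were Prpf4 and Hnrnpr above it, each with a mean of 1.03 FPKM, and Sf3a2 and Srsf6 below it, with means of 0.97 and 0.96 FPKM. Srsf6, an SR protein, was at 0.85, 1.72 and 0.32 FPKM in control, low dose and high dose.

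RNA was taken from oocytes of female ICR mice, an outbred stock, at an age of 8 weeks. The first library came from mice without exposure (control), the second from mice of the low dose of PCB118 and the third from mice of the high dose. PCB118 is a dioxin-like chlorinated biphenyl, and according to the series title exposure fell in pregnancy and the oocytes are those of the offspring. The labels give no amounts, no number of mice and no number of oocytes. With 1 library per group there was no replicate, so no test could be run and no p-value or error is given. All statements are about these 3 libraries.

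Splicing removes introns from nuclear transcripts. The spliceosome is built from small nuclear RNAs, most of them wrapped in a ring of Sm proteins (the Snrp names B, D, E, F and G). It also contains protein subcomplexes such as SF3a and SF3b, which hold the branch point, and the Prp proteins, which drive its activation and catalysis. SR proteins mark exons and hnRNP proteins coat nuclear RNA, and together they set which exons are used. A fully grown oocyte is largely silent in transcription and lives on stored mRNA, so an mRNA level there reflects storage and decay as well as synthesis.

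Levels are fragments per kilobase of transcript, scaled for library size (FPKM), as deposited and summed over the rows of a gene name. A difference between libraries is the log2 ratio after adding 1 FPKM to each value, which understates the change of low genes. Genes whose log2 ratio reached 1 or -1 (2-fold) are called higher or lower, which is a size criterion and involves no test. Depths estimated from the crowding of low values were about 34700000, 27900000 and 31500000 reads in control, low dose and high dose. A read over 1 kb was then worth 0.0288, 0.0359 and 0.0318 FPKM, which bounds counting error only. Fewer oocytes and less RNA per oocyte cannot be told apart in such libraries. Oocyte markers with a row (11 of 12 listed) summed to 7199.5, 6317 and 7265 FPKM in control, low dose and high dose, none of them at 0. Most of these sums was Dppa3, at 4707, 4174 and 5342 FPKM. Single markers differed by more than 2-fold in places, with the oocyte growth factor Gdf9 at 661, 38.5 and 193 FPKM, its relative Bmp15 at 4.27, 18.7 and 15.8 FPKM and the oocyte transcription factor Figla at 95.8, 73.4 and 41.8 FPKM. Granulosa and cumulus markers with a row (8 of 11) summed to 25.1, 27.8 and 23.8 FPKM, led by Nr5a2 with a mean of 13.6 FPKM. Theca and stroma markers (7 of 9 with a row) summed to 3.87, 7.83 and 0.85 FPKM, of which Cyp11a1 alone held 3.55, 7.51 and 0.44 FPKM. Endothelial markers (3 of 4) summed to 3.83, 6.19 and 4.80 FPKM. Epithelial markers (3 of 4) summed to 3.51, 2.13 and 3.14 FPKM, and the 1 blood marker with a row, Cd68, was below 1 FPKM in each library. The part of these other cells in the results was not tested.

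Across the whole machinery, most members lay close to each other in the 3 libraries, and a few departed by a large step. In the low dose library 5 of 60 expressed members were higher than in control (8.33%) and 3 were lower (5.0%), where 14.5% and 5.84% of all 12151 expressed genes were. In the high dose library 2 were higher than in control (3.33%) and 1 was lower (1.67%), beside 9.51% and 5.18% of all expressed genes. Between the exposed libraries, 3 were higher at the high dose (5.0%) and 4 lower (6.67%), beside 6.1% and 9.73% of all expressed genes. Both comparisons with control rest on the same control library. Pcbp1, Sf3b5 and Hnrnpa0 counted as expressed through 1 library alone and therefore had to differ. Without genes at 0 in a library, 57 members and 11851 of all expressed genes were left. The low dose library then had 3 members higher and 3 lower than control, beside 1645 and 621 of all genes left. The high dose library had 1 higher and 1 lower, beside 1044 and 553 of all genes left. Between the exposed libraries 2 were then higher and 2 lower at the high dose, beside 627 and 1077.

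The median log2 ratio of the expressed members was 0.12 at the low dose, beside 0.17 for all expressed genes. At the high dose it was 0.00 beside 0.08, and between high and low dose -0.04 beside -0.07. A trimmed mean scaling moved the median of all genes at the low dose to -0.01 and that of the members to -0.04. The same scaling changed the split of all genes at the low dose from 1766 higher and 710 lower to 1352 higher and 951 lower, and that of the members to 4 higher and 3 lower. Of the 60 members, 42 (70%) lay within 0.5 of no difference at the low dose, beside 53.4% of all expressed genes, and 42 did so at the high dose, beside 62.2%. Between the exposed libraries the shares were 65.0% and 65.2%.

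**Figure D1:**
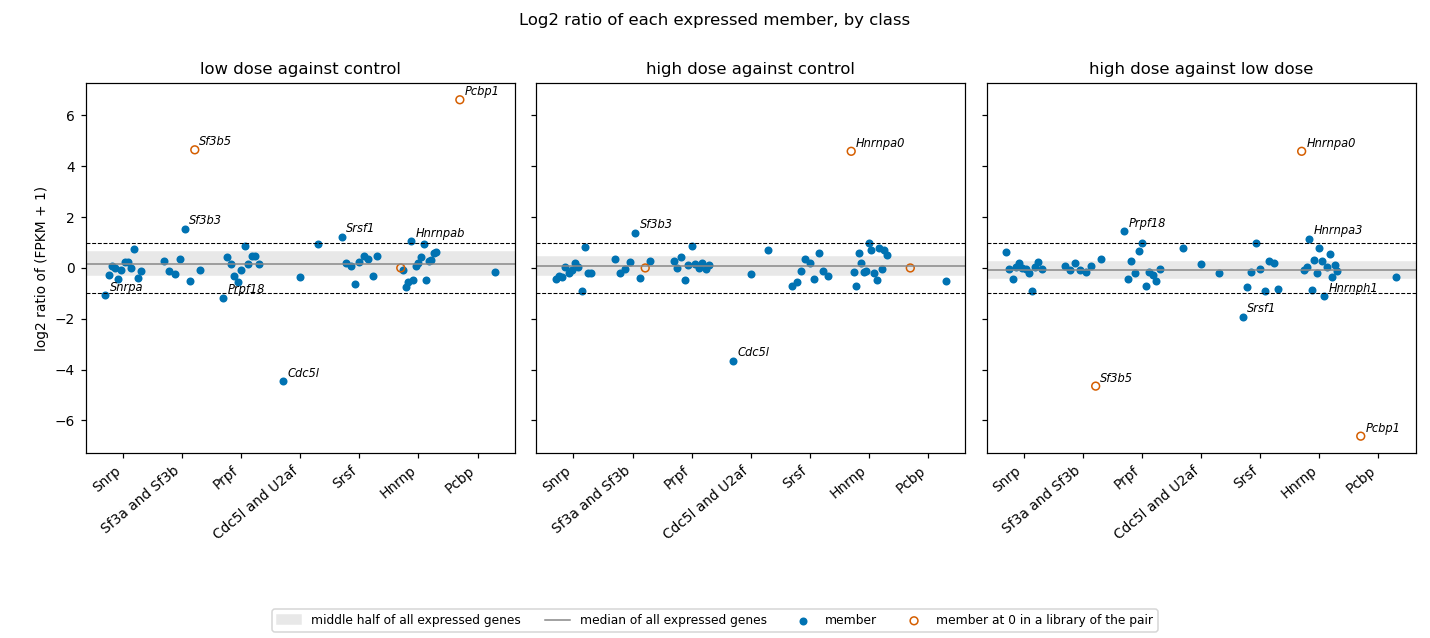
Log2 ratio of (FPKM + 1) for each of the 60 expressed members, by class, in the 3 comparisons, with dashed lines at the 2-fold rule, a grey line at the median and a grey band over the middle quartiles of all 12151 expressed genes. Most points lie between the dashed lines. Cdc5l stands at -4.46 and -3.66 in the comparisons with control, and the open circles are members listed or taken as 0 in a library of the pair.

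The members together summed to 2579.96, 2572 and 2331 FPKM in control, low dose and high dose, or 0.809, 0.777 and 0.734% of the FPKM of all named genes. The Snrp class made up most of that, at 1843, 1815 and 1640 FPKM. The Hnrnp class followed with 252.6, 235.5 and 300.5 FPKM, then the SF3 proteins with 128.9, 151.8 and 132.6 FPKM, the Prpf class with 99.1, 112.2 and 101.4 FPKM and the SR proteins with 90.04, 95.5 and 87.6 FPKM. Cdc5l with the U2af pair summed to 156.2 FPKM in control, 55.2 FPKM at the low dose and 60.98 FPKM at the high dose, and the difference was mostly Cdc5l. The Pcbp class was at 10.5, 106.5 and 7.07 FPKM, and Pcbp1 made up most of the low dose value.

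**Figure D2:**
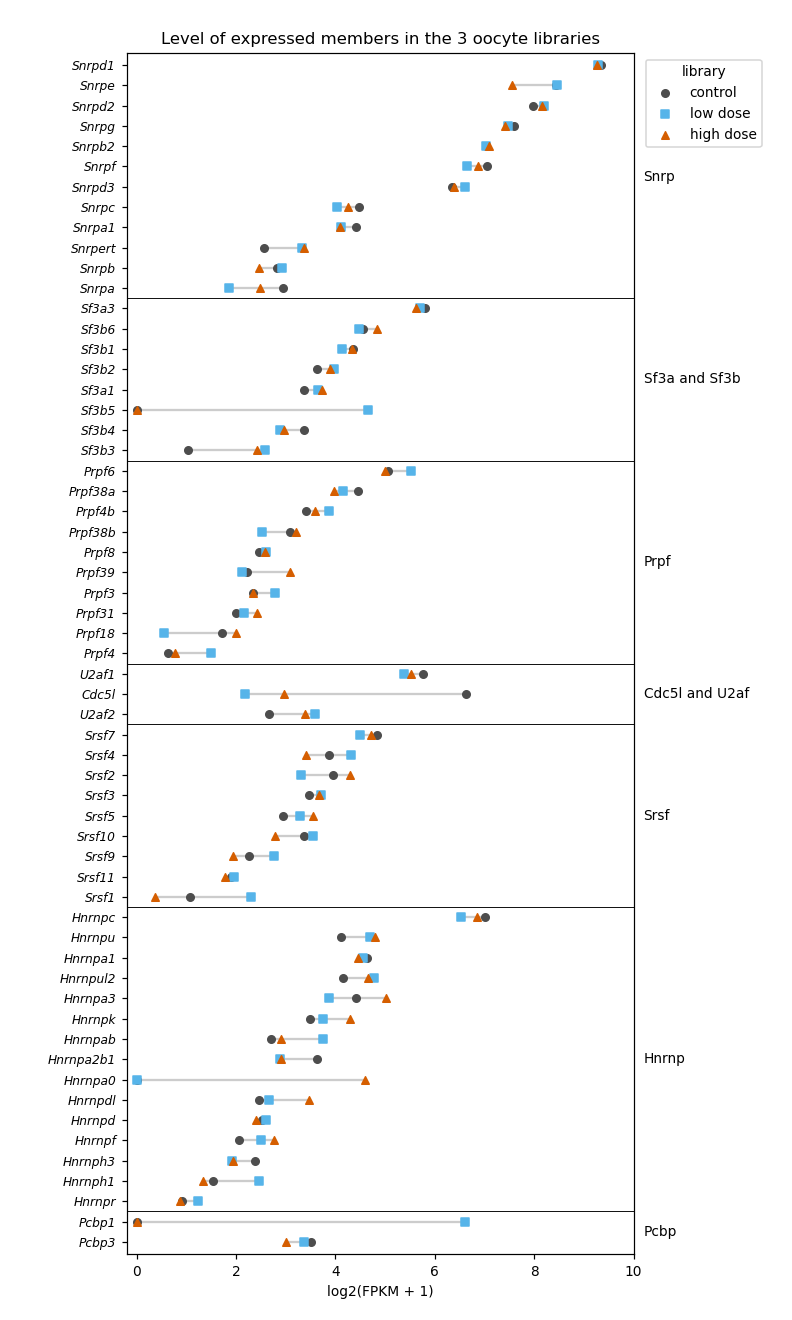
Level, as log2(FPKM + 1), of 59 of the 60 expressed members, with circles for control, squares for low dose and triangles for high dose, ordered by mean level within each class, with a grey line over the range. Snrpd1 is the most abundant member, and the longest lines belong to Pcbp1, Sf3b5, Hnrnpa0 and Cdc5l.

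The 4 most abundant members, Snrpd1, Snrpe, Snrpd2 and Snrpg, are all proteins of the Sm ring. Snrpd1, the SmD1 protein, was at 650 FPKM in control, 621 FPKM in low dose and 613 FPKM in high dose oocytes. Snrpd2 was at 249, 293 and 284 FPKM, and Snrpg at 193, 176 and 169 FPKM. Snrpf was at 132, 98.6 and 115 FPKM and Snrpd3 at 80.8, 96.1 and 82.9 FPKM. Snrpb, the SmB protein, lay far below its ring partners at 6.11, 6.56 and 4.52 FPKM. None of the 7 Sm genes passed the rule in any comparison, beside 30.1% of all expressed genes.

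Snrpe came closest to the rule among them. Its level was 348, 350 and 187 FPKM in control, low dose and high dose, so the high dose library alone was low (log2 ratio to control -0.89). Snrpert, annotated as a processed pseudogene whose sequence is 98.9% identical to the coding sequence of Snrpe, was at 4.91, 9.02 and 9.38 FPKM. How reads that fit both were assigned is not given, and the part of Snrpert in the Snrpe difference was not tested.

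The range of log2(FPKM + 1) over the 3 libraries had a median of 0.25 among the 7 Sm genes. It was 0.64 among all expressed genes and 0.52 among the 1152 genes that averaged 50 FPKM or more. The 9 members at that abundance had a median range of 0.24. The range was thus smaller among abundant genes in general, and the part of abundance in the Sm values was not tested.

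The proteins particular to the U1 and U2 particles ranged more widely in level. Snrpb2, the U2 B″ protein, was the member that differed least, at 130.2, 130.1 and 134.8 FPKM (range of log2(FPKM + 1) 0.05). Its U2 partner Snrpa1 was at 20.3, 16.4 and 16.1 FPKM. Of the U1 proteins, Snrpc was at 21.1, 15.4 and 18.1 FPKM and Snrpa, the A protein of that particle, at 6.65, 2.64 and 4.62 FPKM. Of the 12 expressed Snrp members only Snrpa passed the rule in any comparison, beside 30.1% of all expressed genes. It was lower at the low dose than in control (log2 ratio -1.07). With a pseudocount of 5 FPKM its ratio was -0.61, off the rule.

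The SF3a and SF3b subunits, which form stable subcomplexes of the U2 particle, differed widely in level between genes. Sf3a3 was the most abundant at 55.1, 50.9 and 48.1 FPKM in control, low dose and high dose. Sf3b6, the p14 protein that touches the branch point, was at 22.5, 21.3 and 27.5 FPKM. Sf3b1, the largest SF3b subunit and the target of splicing inhibitors, was at 19.5, 16.4 and 19.2 FPKM. Sf3b2 was at 11.5, 14.7 and 13.8 FPKM, Sf3a1 at 9.33, 11.5 and 12.2 FPKM and Sf3b4 at 9.37, 6.36 and 6.83 FPKM. These 6 of the 8 expressed SF3 genes did not pass the rule in any comparison, where 30.1% of all expressed genes did.

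Sf3b3, the scaffold subunit that embraces Sf3b1, was at 1.04 FPKM in control and at 4.97 and 4.33 FPKM in the low and high dose libraries. Both exposed libraries were above control, and the log2 ratios were 1.55 and 1.39. It was the only member called higher against control at both doses, and the control library is shared by these comparisons. With a pseudocount of 5 FPKM the ratios were 0.72 and 0.63, off the rule. Sf3b5, the smallest SF3b subunit, was listed at 0 in control, at 24.1 FPKM at the low dose and again at 0 at the high dose. No ratio is given for it, since a value of exactly 0 in an FPKM table may be an estimate that failed.

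Among the Prpf genes, Prpf8, the protein at the catalytic centre, was at 4.49, 5.10 and 4.97 FPKM in control, low dose and high dose. Prpf6, a bridge within the tri-snRNP, was the most abundant of the class at 32.1, 44.6 and 30.9 FPKM, followed by Prpf38a, an activation factor, at 20.9, 16.8 and 14.7 FPKM. The Prp4 kinase gene Prpf4b was at 9.65, 13.6 and 11.1 FPKM. Prpf39, a U1-associated factor, was at 3.64, 3.33 and 7.43 FPKM, the high dose library being the highest (log2 ratio to control 0.86). Prpf3, Prpf4, Prpf31 and Prpf38b ranged from 0.56 FPKM in Prpf4 in control to 8.25 FPKM in Prpf38b at the high dose. Of the 11 expressed Prpf genes, only Prpf18, a factor of the second catalytic step, passed the rule in any comparison, beside 30.1% of all expressed genes. It was at 2.30 FPKM in control, 0.47 FPKM at the low dose and 2.97 FPKM at the high dose, so the low dose library alone was low. Its log2 ratio was -1.17 at the low dose against control and 1.44 at the high dose against the low dose, and with a pseudocount of 5 FPKM -0.42 and 0.54, off the rule.

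Cdc5l, the Myb-like scaffold of the Prp19 complex that activates the spliceosome, had the largest ratio among members above 0 in all 3 libraries. It was at 97.9 FPKM in control, 3.51 FPKM at the low dose and 6.81 FPKM at the high dose, and both exposed libraries were far below control. In plain FPKM the low dose library was 27.9-fold and the high dose library 14.4-fold below control, and the log2 ratios were -4.46 and -3.66. Among all 12151 expressed genes these were the 20th and the 31st lowest ratios. Cdc5l had 1 row, and over 7 alternative settings its ratios ran from -4.76 to -3.60 at the low dose and from -3.83 to -3.12 at the high dose. The rows numbered next to it by the assembler did not show the step, with an unnamed row at 2.81, 1.91 and 1.23 FPKM and B230354K17Rik at 0.71, 0.44 and 0.87 FPKM.

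The start region of Cdc5l is shown with those of Sf3b3, which passed the rule at both doses in the other direction, and Pcbp1, which was listed at 0 in all but the low dose library. Each is a RefSeq window of 300 bases on GRCm38.p6, from 250 bases before the start to 50 after it, read along the gene's strand. Capitals mark GCGTG, the core of the element that the aryl hydrocarbon receptor, the sensor of dioxin-like compounds, binds, searched on both strands (GCGTG or CACGC) with no other motif.
Cdc5l, chr17:45433658-45433957, minus strand: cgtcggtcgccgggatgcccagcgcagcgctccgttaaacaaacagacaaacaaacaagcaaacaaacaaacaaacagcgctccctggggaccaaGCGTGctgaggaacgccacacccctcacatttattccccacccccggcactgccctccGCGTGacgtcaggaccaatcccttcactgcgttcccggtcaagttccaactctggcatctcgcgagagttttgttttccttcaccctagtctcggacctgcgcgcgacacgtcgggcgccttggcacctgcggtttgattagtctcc
Sf3b3, chr8:110846754-110847053, minus strand: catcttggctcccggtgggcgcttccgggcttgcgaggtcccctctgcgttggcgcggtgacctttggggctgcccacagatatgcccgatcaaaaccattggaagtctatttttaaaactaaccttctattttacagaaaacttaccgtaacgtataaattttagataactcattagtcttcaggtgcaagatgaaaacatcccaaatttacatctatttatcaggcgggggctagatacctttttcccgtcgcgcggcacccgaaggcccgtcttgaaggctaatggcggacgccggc
Pcbp1, chr6:86526140-86526439, minus strand: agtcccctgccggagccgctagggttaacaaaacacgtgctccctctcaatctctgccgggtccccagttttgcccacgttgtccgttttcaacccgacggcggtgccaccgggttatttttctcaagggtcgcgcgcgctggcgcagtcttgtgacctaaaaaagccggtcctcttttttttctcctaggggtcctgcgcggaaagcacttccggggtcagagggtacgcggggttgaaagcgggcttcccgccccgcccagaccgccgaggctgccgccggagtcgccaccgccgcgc

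The Cdc5l window held the core at positions 96 and 154, counted from the 5′ end of the window, and those of Sf3b3 and Pcbp1 held none. Windows were found for 58 of the 72 members, and 35 of these genes (60.3%) had the core in at least 1 window, as did 9500 of 27025 genes with a window (35.2%). Counted by window, the shares were 57.9% of 76 member windows and 32.4% of all 32851. Of the 32 expressed members with the core 4 passed the rule in any comparison, as did 5 of the 18 without it. The 5 include Pcbp1 and Hnrnpa0, each expressed through 1 library alone. Median log2 ratios to control with and without the core were 0.12 and 0.09 at the low dose. At the high dose they were -0.08 and 0.23. The part of the core in these values was not tested. Base composition of the windows was not compared. A match is a description of letters and says nothing of binding.

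Cdc5l also has close relatives in the genome. The reference annotation (GENCODE M21 on GRCm38, also called mm10) places Cdc5l at chromosome 17, 45391884 to 45433737, on the minus strand, with up to 16 exons in a transcript. It lists 10 single-exon genes on chromosome 10, from Gm32717 at 118238372 to Gm9049, which ends at 118354105, whose sequence is 97.6 to 97.9% identical to the full coding sequence of Cdc5l. Of these, 2 are annotated as processed pseudogenes and the others as protein coding. None had a row under its name among the rows used here. How reads that fit several copies were assigned is not given in the sources used here, so the Cdc5l level is uncertain to that extent, and the part of the copies in the difference was not tested.

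Proteins that work with Cdc5l in the Prp19 complex did not show such a step. Plrg1 was at 34.96, 31.4 and 36.2 FPKM in control, low dose and high dose, and Bcas2 at 10.5, 10.14 and 7.37 FPKM. Ctnnbl1 was at 30.2, 29.3 and 29.7 FPKM, and the linked factor Crnkl1 at 86.5, 120.4 and 107.9 FPKM. Prpf19, the ubiquitin ligase that names the complex, was low throughout at 0.43, 0.48 and 1.36 FPKM, where a row of 0, 0.30 and 1.23 FPKM carried most of the high dose value.

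The U2af pair recognises the end of the intron. U2af1, the small subunit that reads the terminal AG, was at 52.9, 40.6 and 44.7 FPKM in control, low dose and high dose, and U2af2, the large subunit that binds the polypyrimidine tract, at 5.34, 11.03 and 9.41 FPKM. The log2 ratios of U2af2 to control were 0.92 and 0.72, below the rule, and with a pseudocount of 0.1 FPKM the first was 1.03. A processed pseudogene with 96.7% identity to the coding sequence of U2af1, Gm10232, was listed at 0, 0 and 15.2 FPKM.

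SR proteins were expressed at modest levels, and the class was led by Srsf7 at 27.4, 21.7 and 25.2 FPKM in control, low dose and high dose. Srsf4 was at 13.6, 18.95 and 9.64 FPKM, Srsf2, also known as SC35, at 14.5, 8.93 and 18.6 FPKM, and Srsf3 at 10.13, 12.1 and 11.7 FPKM. Srsf5 was at 6.71, 8.76 and 10.7 FPKM and Srsf10 at 9.28, 10.7 and 5.92 FPKM. The other expressed members, Srsf9 and Srsf11, ranged from 2.45 to 5.77 FPKM over the libraries. In none of these 8 genes did a ratio reach the rule.

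Of the 9 expressed SR genes only Srsf1, also known as ASF, passed the rule in any comparison, beside 30.1% of all expressed genes. It was at 1.10 FPKM in control, 3.90 FPKM at the low dose and 0.30 FPKM at the high dose, so the low dose library was the highest and the high dose library the lowest. The log2 ratio was 1.22 at the low dose against control, -0.70 at the high dose against control and -1.92 at the high dose against the low dose. The level is low, and the ratios at the low dose against control and at the high dose against the low dose were 0.54 and -0.75 with a pseudocount of 5 FPKM, off the rule. Of the 9 expressed SR genes, 7 had a log2 ratio to control above 0 at the low dose, and 3 did at the high dose. The medians were 0.24 and -0.12, beside 0.17 and 0.08 for all expressed genes.

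The hnRNP class was led by Hnrnpc, which binds uridine tracts of nascent RNA, at 127, 91.5 and 115 FPKM in control, low dose and high dose. Hnrnpu, a scaffold of nuclear RNA, was at 16.3, 24.8 and 26.97 FPKM, and its relative Hnrnpul2 at 16.7, 26.4 and 24.3 FPKM. Hnrnpa1, a repressor of splice sites, was at 23.9, 22.6 and 21.03 FPKM, and Hnrnpa2b1 at 11.3, 6.35 and 6.46 FPKM. Hnrnpk was at 10.25, 12.5 and 18.5 FPKM. These 6 genes lay below the rule in each comparison, and so did Hnrnpdl at 4.54, 5.35 and 10.03 FPKM, whose log2 ratio of 0.99 at the high dose was just under it. The other expressed members off the rule, Hnrnpd, Hnrnpf, Hnrnph3 and Hnrnpr, ranged from 0.84 FPKM in Hnrnpr to 5.79 FPKM in Hnrnpf, both at the high dose.

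In the hnRNP class 4 of 15 expressed genes passed the rule in some comparison, beside 30.1% of all expressed genes, and 1 of the 4, Hnrnpa0, counts as expressed through 1 library alone. Hnrnpab was at 5.51 FPKM in control, 12.4 FPKM at the low dose and 6.44 FPKM at the high dose, the low dose library being the highest. Its log2 ratio of 1.04 at the low dose was under the rule after trimmed mean scaling (0.84), equal totals (0.996), a length adjustment (0.95) and a pseudocount of 5 FPKM (0.73). Hnrnph1, a reader of G-runs, was at 1.89, 4.51 and 1.53 FPKM in control, low dose and high dose, lower at the high dose than at the low dose (log2 ratio -1.12, and -0.54 with a pseudocount of 5 FPKM, off the rule). Hnrnpa0 had no row in the control table and was taken as 0 there, was listed at 0 at the low dose and was at 23.1 FPKM at the high dose.

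Hnrnpa3 was at 20.3 FPKM in control, 13.6 FPKM at the low dose and 31.3 FPKM at the high dose, and it was higher in the high dose than in the low dose library by a log2 ratio of 1.147 (0.97 with a pseudocount of 5 FPKM, off the rule). The annotation holds 19 copies with at least 95% identity over at least 80% of its coding sequence, of which 15 had a row. These copies summed to 25.1, 63.5 and 47.7 FPKM in control, low dose and high dose, more than the gene itself. The largest of them in the low dose library, Gm11847, was at 2.09, 19.5 and 2.62 FPKM. The level of Hnrnpa3 is therefore uncertain.

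Poly(C)-binding proteins act on mRNA stability and translation as well as on splicing. Pcbp1, a single-exon gene, was listed at 0 in control, at 97.1 FPKM at the low dose and again at 0 at the high dose, spread over a row of 0, 95.9 and 0 FPKM and another of 0, 1.19 and 0 FPKM. Its neighbours in the assembler's numbering, 2310040G24Rik and a row of 1600020E01Rik, were at 2.23, 3.11 and 1.94 FPKM and at 2.02, 1.80 and 1.64 FPKM. One number further on each side, Pcyox1 was at 3.19, 0.12 and 3.81 FPKM, low at the low dose alone, and another row of 1600020E01Rik at 0.28, 0.17 and 4.00 FPKM, high at the high dose alone. Pcbp3 was at 10.4, 9.31 and 7.05 FPKM, and Pcbp4 stayed below 0.1 FPKM in each library.

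**Figure D3:**
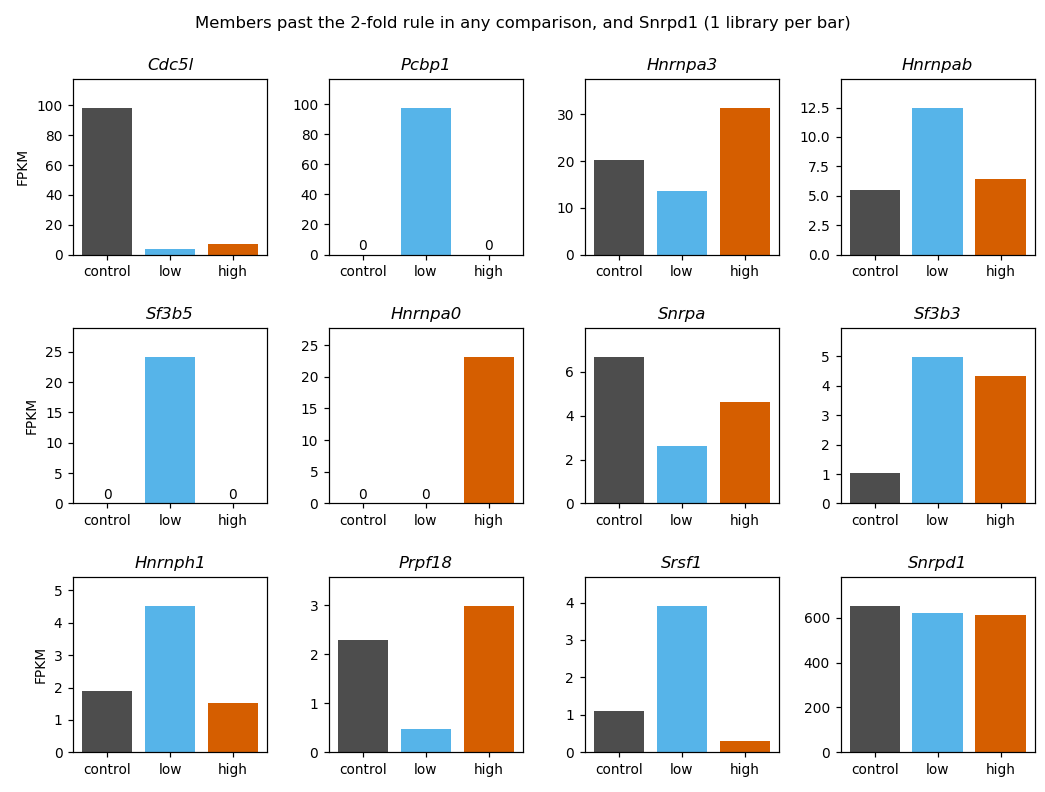
FPKM in control, low dose and high dose (1 library per bar, axes from 0 and scaled to each gene) of the 11 members past the 2-fold rule in any comparison, with Snrpd1 beside them. Cdc5l is high in control alone, Pcbp1 and Sf3b5 at the low dose alone and Hnrnpa0 at the high dose alone, whereas Snrpd1 is between 613 and 650 FPKM.

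The 3 expressed members at 0 in some library share a feature that the choice of names did not use. Pcbp1 (chromosome 6, 86524492 to 86526321), Sf3b5 (chromosome 10, 13005343 to 13009183) and Hnrnpa0 (chromosome 13, 58125879 to 58128556) are annotated with a single exon. Only 1 other expressed member, Snrpert, is. Of the 4 single-exon members, 3 were thus at 0 in a library, and of the 56 multi-exon members 0 were. Over all expressed genes with an annotation, 187 of 943 single-exon genes (19.8%) and 95 of 10774 multi-exon genes (0.88%) were at 0 in at least 1 library. In any of the 3 comparisons 43.1% of these single-exon genes and 28.8% of the multi-exon genes passed the rule, beside 8 of the 56 multi-exon members (14.3%). The part of exon number in these values was not tested.

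Copies bear on other members too. Among the 69 members with a coding sequence in the reference, 20 had at least 1 other gene with at least 95% identity over at least 80% of that sequence, and 19 of these 20 were expressed. They include Snrpd1, Snrpd2, Snrpe, Snrpf, Snrpg, Snrpc, Snrpa, Srsf3, Srsf5, Srsf10, Sf3b4, Hnrnpa1, Hnrnpf, Hnrnpk and both U2af genes. The copy of Snrpd1 was at 1.08, 0.94 and 1.74 FPKM in control, low dose and high dose, and the Snrpd2 copy with a row at 5.81, 4.30 and 4.26 FPKM, small beside the genes themselves. The sources used here do not say how shared reads were split.

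The rest of the pathway was read from a list of 161 other splicing genes, of which 152 had a row and 141 were expressed. At the low dose 15 were higher and 5 lower than in control, and at the high dose 10 were higher and 4 lower. That is 20 and 14 of 141 past the rule, smaller shares than the 20.4% and 14.7% of all expressed genes. Between the exposed libraries 4 of 141 were higher and 10 lower at the high dose, smaller shares than the 6.1% and 9.73% of all expressed genes. Medians were 0.19 for the low and 0.10 for the high dose against control, beside 0.17 and 0.08 for all expressed genes. The counts by role below stand beside 14.5% of all expressed genes higher and 5.84% lower at the low dose. At the high dose these shares were 9.51% and 5.18%. Each role holds few genes, and its counts are descriptions only.

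Of the 14 expressed branch-site and U2-associated factors, 2 stood higher and 1 lower at the low dose, and 1 was higher and 1 lower at the high dose. Puf60, which works beside U2af2 at the polypyrimidine tract, was at 32.2, 12.5 and 13.2 FPKM in control, low dose and high dose, with log2 ratios to control of -1.30 and -1.23. Rbm10, a regulator of exon skipping, was at 26.8, 84.9 and 59.8 FPKM (1.63 and 1.13), of which its main row held 26.6, 80.02 and 51.5 FPKM, which alone is under the rule at the high dose. Phf5a, the small SF3b subunit outside the Sf3 names, was at 133, 77.9 and 89.2 FPKM (-0.77 and -0.57).

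Of the 26 expressed U1, U5, U4/U6 and minor spliceosome proteins, 1 was higher at the low dose, and 1 was higher and 1 lower at the high dose. The U1-associated Luc7l2 was at 1.07, 14.3 and 3.77 FPKM in control, low dose and high dose (log2 ratios to control 2.88 and 1.202) over 5 rows. Its largest row was listed at 0 in control and at 7.90 and 1.61 FPKM in the exposed libraries. Snu13, which binds the kink-turn of U4 snRNA, was at 188, 153 and 62.1 FPKM, lower at the high dose (-1.59).

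Of the 19 expressed LSm and SMN proteins, which take part in building the RNA particles, 3 stood higher and 1 lower at the low dose, and 1 was higher at the high dose. Lsm10, a subunit of the U7 particle of histone mRNA processing, was at 30.9, 268 and 27.01 FPKM in control, low dose and high dose, so the low dose library alone was high (log2 ratio 3.07). Ddx20, the helicase gemin3 of the SMN complex, was at 123, 433 and 211 FPKM (1.81 and 0.78). Gemin6 was at 14.9, 16.9 and 55.5 FPKM, the high dose library being higher (1.83), and Gemin7, its partner, at 20.4, 7.12 and 11.2 FPKM, lower at the low dose (-1.40). Lsm7, of the ring on U6 snRNA, was at 96.1, 198 and 126 FPKM, higher at the low dose (1.04).

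Of the 26 expressed Prp19 complex, catalytic and disassembly factors, the low dose library had 2 higher and the high dose library 1. They were Xab2 at 2.16, 8.38 and 2.70 FPKM in control, low dose and high dose (log2 ratio at the low dose 1.57) and Cwc22, which loads the exon junction complex, at 2.12, 5.36 and 5.40 FPKM (1.03 and 1.04).

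Among the 26 expressed regulators outside the SR and hnRNP names, 5 stood higher and 3 lower at the low dose, and 3 were higher and 2 lower at the high dose. Those higher at both doses were Khsrp, Ddx5 and Celf1. Khsrp, a KH-domain protein of splicing and mRNA decay, was at 7.74, 24.3 and 21.6 FPKM in control, low dose and high dose (log2 ratios 1.53 and 1.37), and the helicase Ddx5 at 8.87, 26.02 and 24.3 FPKM (1.45 and 1.36). Celf1, a factor of alternative splicing and mRNA decay, was at 2.83, 7.55 and 7.39 FPKM (1.16 and 1.13). Rbfox2 was at 6.44, 7.62 and 2.33 FPKM, lower at the high dose (-1.16). Nono, a paraspeckle protein, was at 107, 218 and 52.8 FPKM, higher at the low dose (1.02) and lower at the high dose (-1.002).

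In the exon junction complex and its export partners, Rnps1 was at 13.1, 29.4 and 20.6 FPKM in control, low dose and high dose, higher at the low dose (1.10). Acin1 was at 4.38, 8.87 and 12.4 FPKM, the high dose library being higher (1.32), with its larger row at 2.82, 7.12 and 11.2 FPKM, and Thoc2 at 7.97, 13.9 and 18.85 FPKM (1.146), where a row of 0, 0.73 and 8.33 FPKM carried most of the high dose difference. Of the 18 expressed SR-related proteins and kinases, only the SR kinase Clk4 passed the rule against control, at 1.97, 6.91 and 5.05 FPKM (1.41 and 1.03). Son, a scaffold of nuclear speckles, was at 17.8, 32.6 and 25.9 FPKM (0.84 and 0.52) and the SR kinase Clk1 at 11.5, 5.87 and 9.69 FPKM (-0.87 and -0.23).

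Some of these calls on other splicing genes rest on the scaling, the pseudocount, the length adjustment or the way rows were joined. Under trimmed mean scaling 15 passed the rule at the low and 12 at the high dose. The 15 include a gene that did not pass it before scaling. At the low dose Lsm7 (0.81), Rnps1 (0.89), Celf1 (0.96), Nono (0.80), Cwc22 (0.84) and the branch-site factor Sf1 (0.94) were then under it. At the high dose Clk4 (0.94) and Cwc22 (0.95) were. With equal totals Lsm7 (0.98), Nono (0.97) and Cwc22 (0.98) were under it at the low dose, and Nono (-0.996) at the high dose. With a pseudocount of 5 FPKM, among further genes, the ratios of Luc7l2 (0.53), Acin1 (0.89), Thoc2 (0.88) and Rbfox2 (-0.64) at the high dose and of Xab2 (0.90) at the low dose were under it. Celf1 was under it at both doses (0.68 and 0.66). Under the length adjustment Celf1 (0.71), Nono (0.93), Sf1 (0.76) and Cwc22 (0.75) were under it at the low dose. So were Celf1 (0.86), Clk4 (0.93), Cwc22 (0.90) and Thoc2 (0.90) at the high dose. With the largest row per gene name Cwc22 was under it at both doses (0.37 and 0.79), and Nono (-0.90), Rbm10 (0.93) and Thoc2 (0.36) at the high dose. The ratios of Puf60, Khsrp and Ddx5 stayed past it at both doses in each of these settings, and so did those of Lsm10, Ddx20, Luc7l2, Rbm10 and Gemin7 at the low dose and of Snu13 and Gemin6 at the high dose.

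**Figure D4:**
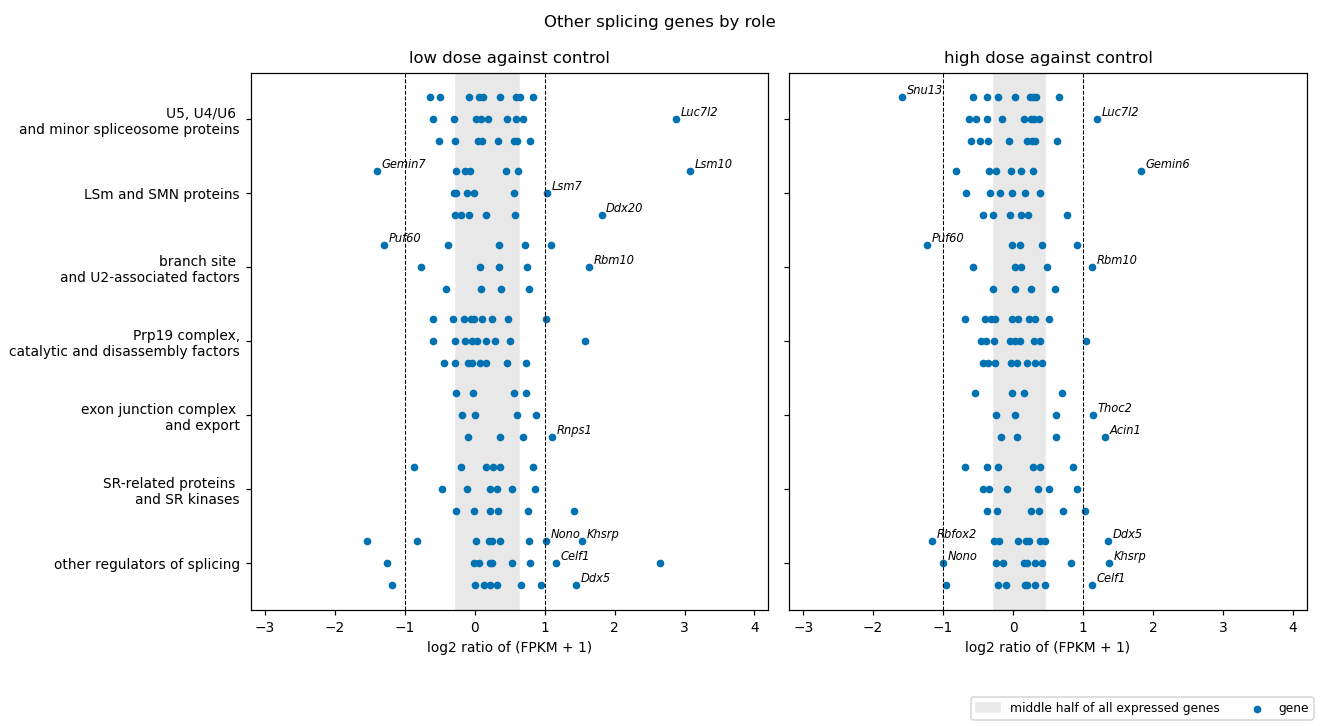
Log2 ratio of (FPKM + 1) to control of the 141 expressed splicing genes outside the chosen names, by role, at the low and the high dose, with dashed lines at the 2-fold rule and a grey band over the middle quartiles of all expressed genes. Genes past the rule that average 5 FPKM or more are named, among them Lsm10 at 3.07 at the low dose and Puf60 at -1.30 and -1.23.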

How the data were processed

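Per the submitters' processing notes, the tools were HISAT2 and StringTie and the build mm10. The sources used here give no versions, annotation, read layout, strand setting or treatment of reads that fit several places. Each library has 1 table of FPKM, made by the authors, per the file headers. Tables were joined by row identifier, absent rows were taken as 0, and 61 identifiers with different names between tables were left out, none of them a member. FPKM was summed per gene name. Genes that averaged 1 FPKM or more were called expressed. FPKM is not a count and there was 1 library per group, so no test was run.

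Depth was estimated from rows of genes with 1 reference transcript, as the most crowded value of FPKM times length. Exon numbers, positions and lengths came from GENCODE M21. Copies were found with blastn 2.17.0 on reference transcripts (95% identity, 80% of the coding sequence). Start windows came from RefSeq (GRCm38.p6). Python 3.11.15, pandas 2.3.3 and NumPy 2.4.6 were used.

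Named were members past the rule that averaged 5 FPKM or more, the 2 most abundant of each class, Cdc5l, U2af1, U2af2, Pcbp1, Sf3b1, Prpf8, and up to 4 other splicing genes per role. Further members and other splicing genes were named to account for each class and role, after their values were seen. Members and lists were chosen with earlier results of these data known. Alternatives were other pseudocounts, filters, thresholds, scalings, ways to join rows and an adjustment for transcript length. Leaving out genes at 0 and single-exon genes was chosen after seeing the data. The values of 1 expressed member are not reported here.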

Additional observations from a re-analysis of the deposited data

How the results depend on the processing

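With 1 library per group, no library could be left out and no paired analysis was possible because no group has a second sample. A count was held to have moved beyond 1.5 times and a median beyond 0.1. In order of members higher and lower at the low dose, higher and lower at the high dose (both against control), and higher and lower at the high dose against the low dose, the counts as reported were 5, 3, 2, 1, 3 and 4. Those counts were of 60 members, beside 1766, 710, 1155, 629, 741 and 1182 of all 12151 expressed genes. A pseudocount of 0.1 FPKM gave 8, 3, 4, 2, 5 and 5, and one of 5 FPKM gave 2, 1, 1, 1, 1 and 2. Over all 12151 expressed genes the first gave 2427, 1007, 1711, 1021, 1028 and 1604. The second gave 788, 269, 510, 263, 303 and 519. A mean of at least 5 FPKM gave 3, 1, 1, 1, 2 and 2 of 44 members, beside 968, 373, 647, 343, 340 and 611 of 6330 genes. A threshold of 0.58 (about 1.5-fold) gave 11, 5, 11, 4, 9 and 10 of 60 members. Beside these stood 3286, 1575, 2387, 1508, 1410 and 2240 of 12151 genes. Trimmed mean scaling and equal total FPKM each raised the fifth count to 5, beside 815 and 789 of 12151 genes. Rows in all 3 tables lowered the third to 1 of 59 members, beside 1058 of 12044 genes. The length adjustment gave 3, 4, 2, 1, 5 and 4, beside 1311, 857, 981, 681, 786 and 1022 of 11717 genes. Dropping genes at 0 in a library (57 members left), or single-exon genes (56 left), gave 3, 3, 1, 1, 2 and 2 in each case. Over all genes the first gave 1645, 621, 1044, 553, 627 and 1077 of 11851. The second gave 1519, 574, 990, 511, 599 and 990 of 10774. The median at the low dose moved to 0.0030 with a mean of at least 5 FPKM, to -0.0394 under trimmed mean scaling and to -0.0446 under the length adjustment. The median of all genes was then 0.098, -0.0057 and -0.0011, beside 0.17 as reported. At the high dose against control the median of the members moved to -0.104 under the length adjustment (all genes -0.0016). At the high dose against the low dose it moved to 0.0675 under trimmed mean scaling (all genes 0.026). The causes were not tested. Of the 11 members past the rule, 7 were off it under some setting in at least 1 comparison, and these values stand beside the genes, except that of Srsf1 at the low dose under the length adjustment (0.90). None of the 11 changed direction in a called comparison under the 7 settings that move single values (6 for Hnrnpa0, which has no row in 1 table).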
